A study of Xenopus tropicalis with 26 samples.

Results

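In single embryos of the frog Xenopus tropicalis, 108 of the 26550 gene models in the deposited expression table were high in 1 of the 3 clutches, clutch C. A clutch is a set of sibling embryos from the eggs of a female. The 108 gene models were chosen by their measured levels in TPM, a level per transcript length whose values sum to about 1000000 in each embryo. Each had a mean under 750 TPM over the 15 embryos and a clutch C mean of at least 10 TPM. That mean was at least 2 times the clutch A mean and at least 2 times the clutch B mean, and the lowest clutch C embryo lay above the highest of the other 10. Levels in clutch C against A and B are therefore a description of how the models were selected, with no test. By the same rule 43 models were high in clutch A only and 38 in clutch B only, and by the mirrored rule 83 were low in clutch C only.

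Clutches A, B and C each gave 5 whole, untreated embryos at Nieuwkoop-Faber stage 10.25, 7 hours after fertilisation. Females received chorionic gonadotropin, eggs were fertilised in vitro, and polyadenylated RNA of each embryo was sequenced after Smart-seq2 cDNA synthesis and tagmentation. The study used these embryos to ask how expression varies in genes with and without the histone mark H3K4me1. No strain or genotype is given in the labels, and each clutch is 1 set of siblings, so parents, fertilisation and handling cannot be told apart. The p-values set a difference between clutches against the spread among siblings, and do not cover how clutches vary in general. TPM hold no information on sequencing depth, so the reads behind each value are unknown, and no pair of embryos had identical values.

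Stage 10.25 is the beginning of gastrulation, when the embryo holds RNA stored by the mother in the egg beside RNA made from its own genome after the mid-blastula transition. Siblings share a mother, so both the stored RNA and the inherited alleles can differ from clutch to clutch. Single-embryo libraries allow the spread among siblings to be set beside the difference between clutches. The table identifies its gene models by ID alone, and a look-up of all 26550 in a RefSeq gene list gave 0 matches, so no gene name, position, sequence or function is given here and the 4 models printed by ID stand for patterns.

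The 108 gene models ranged from 10.1 to 355 TPM in clutch C, with a median clutch mean of 25.6 TPM. There were 41 models between 10 and 20 TPM, 42 between 20 and 50 TPM, 15 between 50 and 100 TPM and 10 at 100 TPM or more. In clutch A the median of their means was 5.80 TPM (quartiles 2.45 and 11.8), and in clutch B 6.68 TPM (quartiles 3.27 and 12.4). High in clutch C did not usually mean absent elsewhere. The higher of the A and B means was at least 10 TPM for 39 models, 5 to 10 TPM for 35, 1 to 5 TPM for 20 and under 1 TPM for 14. Clutch C exceeded that higher mean by under 3 times in 59 models, by 3 to 5 times in 19 and by 5 to 10 times in 11. The other 19 comprised 17 models with a ratio of 10 or more and 2 listed at 0 in every embryo of the other clutches.

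**Figure D1:**
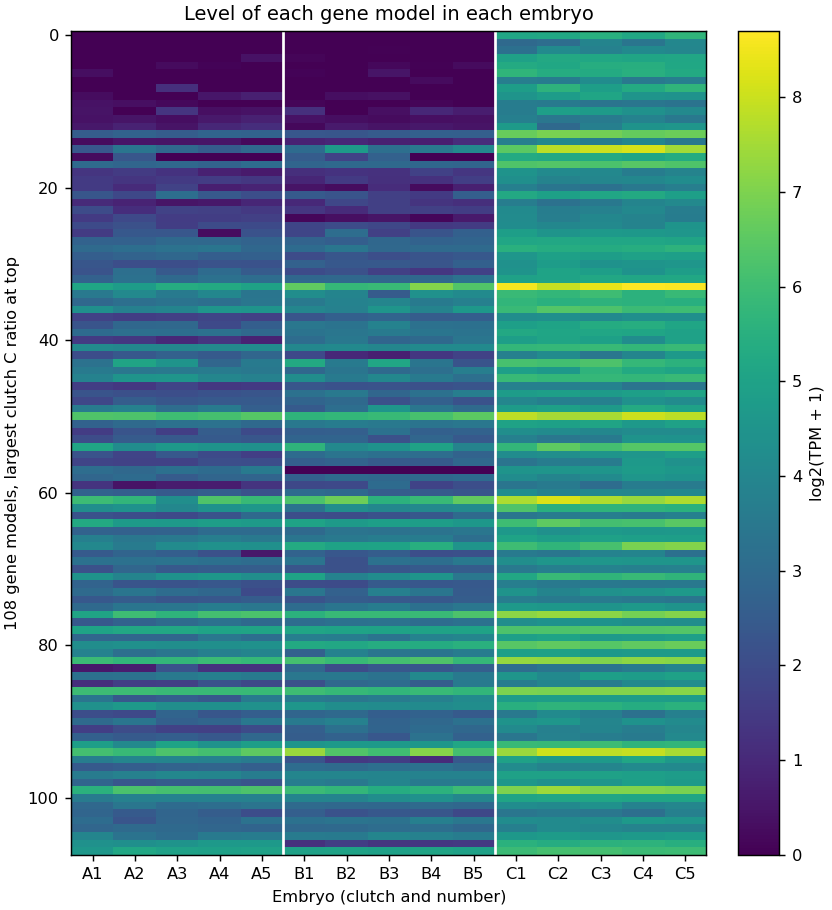
Level of each of the 108 gene models (rows, ordered by the ratio of the clutch C mean to the higher of the other means) in each of the 15 embryos (columns), as log2(TPM + 1) in colour. The 10 embryos of clutches A and B are near 0 in the uppermost rows and at moderate levels in most others, and the 5 clutch C embryos lie above them in every row.

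For many of the models the clutches lay further apart than the rule's lack of overlap alone required. The ratio that the rule asks of the means also widens this gap, so the values are a description. In 50 of the 108, the lowest clutch C embryo was at least 2 times the highest of the other 10. Among the 106 models with a value above 0 in clutches A or B, the lowest clutch C embryo stood at a median of 1.91 times the highest other embryo (quartiles 1.57 and 3.47). Of 12551 models with a mean of at least 1 TPM, 7.35% had all 5 clutch C embryos above the other 10, a property that the rule fixes for the 108. All 108 were also called higher in clutch C against A and against B by limma (adjusted p under 0.05 over the 12551 models), where 18.2% and 19.8% of all models were called. Those contrasts share the clutch C embryos and are the ones the rule used, so nothing is read from them.

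Close to the thresholds the choice rests on small differences. The lowest ratio to a clutch mean among the 108 was 2.03, and the nearest model left out on that criterion alone had 1.99. The lowest clutch C mean was 10.1 TPM inside and 9.96 TPM outside. The tightest separation was a lowest clutch C embryo at 1.01 times the highest other embryo, against 0.975 for the nearest model outside. On 1 criterion alone, 551 models failed through the ratio, 314 through the clutch C level, 11 through overlap and 0 through the ceiling, to which the closest of the 108 had a mean of 158 TPM.

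**Figure D2:**
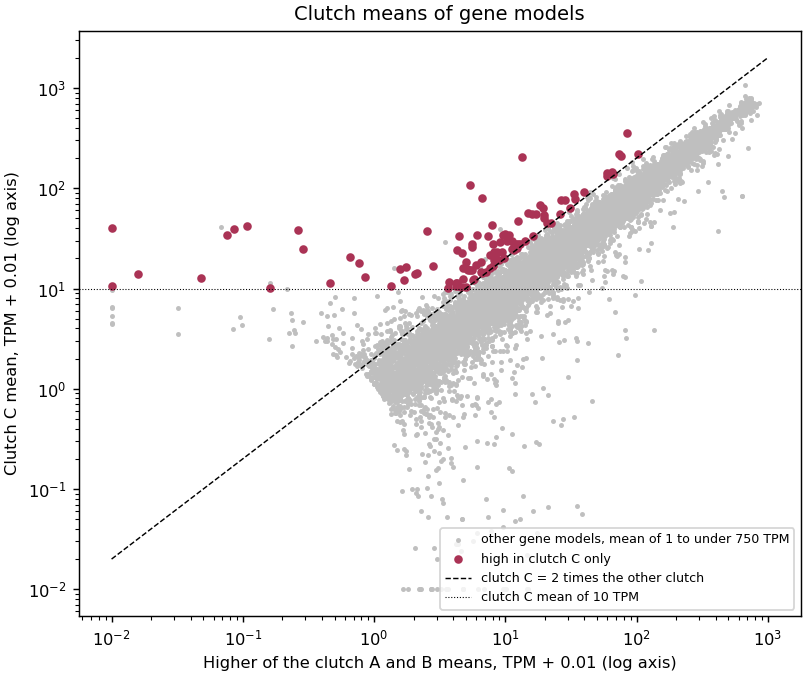
Clutch C mean against the higher of the clutch A and B means, both as TPM + 0.01 on log axes, for the 108 gene models (red) and the other models with a mean from 1 to under 750 TPM (grey). Most red points lie just above the dashed line of 2 times, where 59 models had a ratio under 3, and the 14 with both other means under 1 TPM lie far to the left.

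Whether a clutch C embryo that took no part in the choice shows the same levels was examined by leaving out each in turn. Chosen on the other 14 embryos, 109 to 116 models met the rule, and 101 to 107 of them were among the 108. The left-out embryo lay above all 10 embryos of clutches A and B in 97.4% to 100% of the models so chosen. Over all 12551 models this share was 15.6% to 18.1%. The left-out embryo reached 2 times both other clutch means in 81.9% to 85.8% of the chosen models. The same 10 embryos of clutches A and B had served in the choice, and the left-out embryo is a sibling of the others. High shares are therefore largely built in, and the share over all models is not a like background. These values describe how alike the siblings are and are not an independent test of the list.

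The model with the highest clutch C mean, Xetrov90028369m.g, was strongly graded over the clutches. In clutch A its levels were 33.9, 27.1, 40.5, 37.6 and 31.1 TPM. In clutch B they were 94.7, 54.6, 59.1, 134 and 80.0 TPM, and in clutch C 382, 241, 339, 414 and 398 TPM. All 3 clutches were separate, as the rule fixes for clutch C, and clutch B spread more widely around its mean than A or C. The means were 34.1 ± 5.28 TPM in A, 84.4 ± 31.9 TPM in B and 355 ± 69.7 TPM in C (SD, n = 5 each). Clutch B against A, which the rule did not use, gave 1.22 ± 0.22 (SE) on the log2(TPM + 1) scale, with limma adjusted p = 0.000841.

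Other abundant models took several forms. The next 3 in level had clutch C means of 218, 217 and 210 TPM, each with at least 53.4 TPM in both other clutches. A further model at 207 TPM in clutch C was at 6.31 TPM in A and 13.5 TPM in B, and its clutch C embryos ran from 89.7 to 290 TPM. Its spread among siblings, the SD over the mean, was 37.4% in clutch C and 56.7% in clutch B. A model with a narrower spread had 108 ± 10.1 TPM in clutch C against 5.41 and 4.67 TPM in A and B (n = 5 each). Another had 79.5 ± 4.16 TPM in clutch C, from 74.8 to 85.3 TPM over the siblings, and no more than 7.45 TPM in the rest. In both of these, the siblings of clutch C were close together.

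At the far end were models almost without signal outside clutch C. In 10 of the 108, no embryo of the other clutches reached 1 TPM. Their clutch C means ran from 10.1 to 42.4 TPM, so none of them was among the most abundant. The 14 models with both other means under 1 TPM entered the fit over models with a mean of at least 1 TPM through clutch C alone. One of them, at 0.308 TPM in A and 0.842 TPM in B, is among the models called between those clutches. A further model, at 1.33 TPM in A and 0.518 TPM in B, also entered only through clutch C and is called lower in B.

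The 2 models listed at 0 throughout clutches A and B had a likeness in the table. One was at 34.3, 36.1, 43.7, 36.1 and 51.1 TPM in the 5 clutch C embryos, and the other at 6.83, 7.64, 14.1, 9.32 and 15.3 TPM. For each of them, the model with the next ID number showed the reverse. Those next models were listed at 0 in all 5 clutch C embryos and at 0 to 14.02 TPM in the other 10. They also had identical values to each other in all 15 embryos. Of the 12551 models, 78 (0.622%) had values identical to those of another model in every embryo, and 0 of the 108 did. How the counting divided reads among near-identical gene copies was not tested, so the levels of such models are uncertain.

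Neighbouring ID numbers were looked at because no positions are at hand, and the sources used here do not say that numbers follow the genome. Of the 108 models, 5 (4.63%) had another of the 108 at the next or previous number, against 0.776% of the 8381 other models with a clutch C mean of at least 10 TPM. They formed a pair and a run of 3. The 3 consecutive models had clutch C means of 10.1, 17.8 and 18.5 TPM, but unequal levels in clutch A, at 0.152, 0.758 and 6.03 TPM. A model at most 0.5 times as high in clutch C as in A and in B stood at a next or previous number for 6 of the 108 (5.56%) and for 2.03% of the others. Within 5 numbers the shares were 18.5% and 8.85%. For 1 of the 6, the neighbour fell from 21.2 TPM in both A and B to 0.056 TPM in clutch C, and the sum of the 2 models in C was 0.615 times that in A. For the other 5, the sum in clutch C was 1.65 to 11.1 times that in A, so the sum was also higher in C.

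The comparison of clutch B with clutch A was not used by the rule beyond the cap on both. It was used to ask, model by model, whether levels also differed between the other clutches. Of the 108, 28 (25.9%) were called higher in clutch B, where 14.2% of all models were, and 8 (7.41%) were called lower, where 11.4% were. With a difference of at least 2-fold on the log2(TPM + 1) scale as well, 10 of the 108 (9.26%) were higher in B and 5 (4.63%) lower, against 1.35% and 1.41% of all models. All 5 clutch B embryos lay above all 5 clutch A embryos in 20 models (18.5%, against 10.4% of all), and the reverse held in 7 (6.48%, against 7.7%). The remaining 72 were not called. The median difference was 0.07 on the log2 scale over the 108 and 0.02 over all 12551 models, and the median size without sign was 0.24 and 0.14. The 14 models with both other means under 1 TPM, and 1 further model, entered the fit through clutch C alone. They remain in these shares, and 1 call in each direction is among them. These shares describe a list chosen on levels and are not a test of the list.

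**Figure D3:**
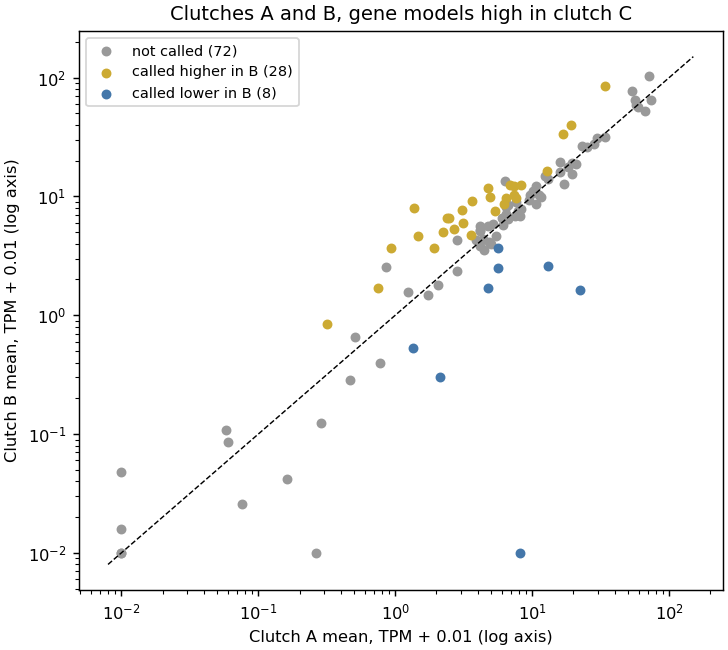
Clutch B mean against clutch A mean of the 108 gene models, both as TPM + 0.01 on log axes, with equality dashed. The 28 models called higher in B lie in a band above the line, the 8 called lower reach further from it, and 72 were not called (grey).

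In the 28 models higher in clutch B, the levels rose from A to B and, as the rule fixes, again from B to C. The B mean was 1.26 to 5.92 times the A mean (median 2.00). The C mean was 2.05 to 15.4 times the B mean (median 2.86), where the rule asks for at least 2. The widest step from A to B was in Xetrov90015282m.g. It was at 1.83, 1.66, 1.00, 1.52 and 0.77 TPM in the embryos of clutch A. In clutch B it was at 7.47, 10.1, 6.19, 6.80 and 9.59 TPM, and in clutch C at 28.6, 32.5, 29.7, 17.8 and 30.4 TPM. No clutch overlapped another, as the rule fixes for clutch C, and 1 clutch C embryo lay well below its 4 siblings. Clutch B exceeded A by 1.94 ± 0.17 (SE) on the log2(TPM + 1) scale, with limma adjusted p = 3.26e-07. The more abundant models of this kind included 1 with means of 19.1, 39.9 and 91.7 TPM in A, B and C, whose limma adjusted p for B against A was 3.89e-09.

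In the 8 models lower in clutch B, the order was B, A, C, with clutch C highest by the rule. The lowest differences were in 2 models that were nearly or wholly without signal in clutch B but clearly present in A. Xetrov90026688m.g was at 7.68, 6.72, 8.32, 7.25 and 10.6 TPM in clutch A and at 21.5, 22.1, 22.4, 26.3 and 23.1 TPM in clutch C, and it was listed at 0 in all 5 embryos of clutch B. All 5 embryos of clutch B lay below all 5 of clutch A, with limma adjusted p = 4.70e-13, and no fold is given against values of 0. Xetrov90006400m.g was at 20.0, 19.2, 21.1, 25.1 and 25.3 TPM in clutch A and at 1.31, 2.02, 1.47, 1.63 and 1.70 TPM in clutch B. In clutch C it was at 46.0, 41.2, 46.8, 48.6 and 42.6 TPM, a mean 2.03 times that of clutch A. The fitted difference of B minus A was -3.14 ± 0.09 (SE), with limma adjusted p = 1.80e-13. A further model of this kind had means of 13.0 TPM in A, 2.58 TPM in B and 27.6 TPM in C. In each of these 3 models no embryo of one clutch overlapped another clutch, which the rule fixes for clutch C but not between A and B. Over the 8 models the clutch C mean was 2.03 to 7.97 times the A mean, where the rule asks for at least 2.

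**Figure D4:**
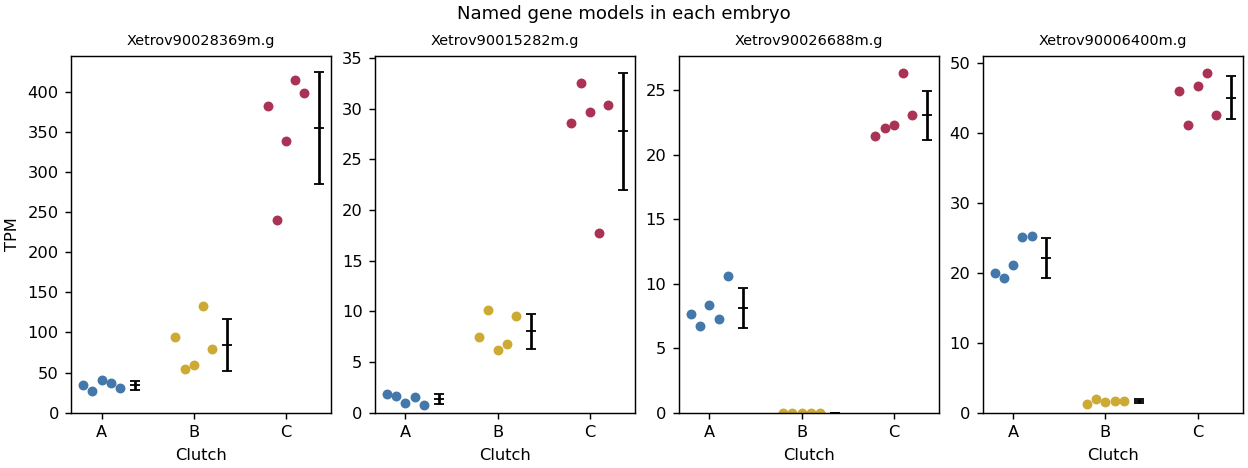
TPM in each embryo of the 4 gene models given by ID, with the mean and SD (n = 5) of each clutch beside the points and a separate linear axis from 0 for each model. The first 2 rise from A to B to C, and the last 2 are at or near 0 in clutch B, at intermediate levels in A and highest in C.

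A low mean in just 1 of the other clutches was uncommon. In 6 of the 108, exactly 1 of the A and B means was under 1 TPM, in 3 through A and in 3 through B. In 88 models both means were at least 1 TPM. Of the models called between A and B, 20 had a clutch C ratio under 3, where 59 of the 108 lay, and 1 had a ratio of 10 or more, where 19 lay. The 14 models with both other means under 1 TPM are all among these 19. At such levels the log2(TPM + 1) scale leaves little room for a call, so the counts of these groups are not compared.

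Summed over the 108 models, clutch C lay well above A and B, as the rule fixes, while A and B were close without overlap. The sum was 1151 to 1253 TPM in clutch A (mean 1202 ± 44.6, SD, n = 5), 1269 to 1468 TPM in clutch B (1373 ± 85.5) and 4494 to 4927 TPM in clutch C (4752 ± 162). This is 0.120%, 0.137% and 0.475% of all TPM of an embryo. In clutch C, 25.4% of the sum came from the 5 most abundant models. Abundant models also weigh on the sums of A and B, where Xetrov90028369m.g alone had means of 34.1 and 84.4 TPM. The lack of overlap between the A and B sums is therefore not read as a trait of the 108 as a set. The rule asks every clutch C embryo to be high, and no sibling stood apart over the 108 models as a set. Relative to the clutch mean of each model, the median over the 108 ran from 96.5% to 102% in the 5 siblings. Such a median hides the spread of single models, which is given below. Each of the 5 was the highest of its clutch for 15 to 26 models and the lowest for 15 to 28.

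**Figure D5:**
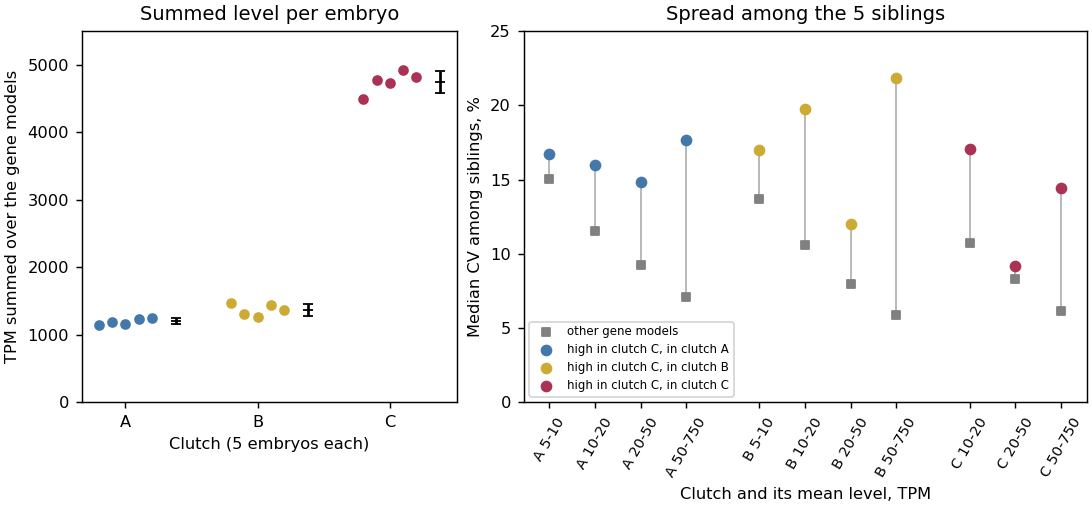
Left, TPM summed over the 108 gene models in each embryo, with the mean and SD (n = 5) of each clutch; the clutch C embryos lie between 4494 and 4927 TPM and the others at 1468 TPM or below. Right, median coefficient of variation (%) among the 5 siblings for the gene models high in clutch C (circles) and for other models (squares) of the same clutch and band of mean level in TPM, with the circles above the squares throughout.

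The spread among siblings, the SD over the mean, was wider for these models than for the table as a whole, also in clutches A and B. It was taken where the clutch mean was at least 5 TPM. In clutch A the median was 16.2% over 60 of the 108 and 9.14% over all 9934 such models. In clutch B it was 17.4% over 67 and 7.83% over 9974, and in clutch C 14.3% over 108 and 8.09% over 9949. Low levels spread more, so the models were also set beside others of the same level. At 5 to 10 TPM, the medians were 16.74% over 28 of the 108 and 15.02% over others in clutch A. In B they were 16.99% over 32 and 13.68% over others, and by the rule clutch C has none there. This band held the most of the 108 in A and B, and its gap was narrower than that to the table as a whole. At 10 to 20 TPM, the medians were 16.0% and 11.6% in clutch A, 19.8% and 10.6% in B and 17.1% and 10.7% in C. At 50 TPM and above they were 17.7% and 7.13% in A (7 of the 108), 21.8% and 5.91% in B (8) and 14.4% and 6.14% in C (25). The narrowest gap was at 20 to 50 TPM in clutch C, with 9.18% over 42 models and 8.29% over others. The rule bears on the spread in all 3 clutches, since it asks that the lowest clutch C embryo lie above the highest embryo of A and B. These values carry no test.

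Models with a spread of at least 30% were found in each clutch. There were 7 of 60 in clutch A (11.7%, against 4.16% of all), 16 of 67 in clutch B (23.9%, against 2.92%) and 8 of 108 in clutch C (7.41%, against 2.16%). These shares are not matched for level. With a clutch mean of at least 10 TPM, there were 2 of 32 in A (6.25%, against 2.89%) and 10 of 35 in B (28.6%, against 1.77%). In C there were 8 of 108 (7.41%, against 1.18%). In clutch B the highest embryo of the 16 models was spread over all 5 siblings, with 2 to 5 models each. In clutch A 5 of the 7 were highest in the same embryo, and in clutch C 6 of the 8 were highest in embryo 4 or 5. The highest embryo was not tallied over all variable gene models, so these counts are not read as a trait of the 108. The widest spread in clutch C, 44.0%, belonged to a model at 25.6, 6.92, 12.4, 21.1 and 22.9 TPM, all above the highest other embryo at 1.2 TPM. Another variable model had 63.1, 50.9, 70.7, 122 and 134 TPM in clutch C and means of 16.8 and 33.4 TPM in A and B. In this model embryos 4 and 5 lay together above the other 3 siblings.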

How the data were processed

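The authors deposited TPM values for 26550 gene models of 15 embryos, and each column was matched to a sample title. Bowtie2 2.2.7 and RSEM 1.2.12 are listed per the submitters' processing notes. The genome build, annotation and read numbers are not stated in the labels or headers used here. The 11 ChIP samples are not used here, since no table at hand places the gene models on their coordinates.

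The 108 models, the tests and the descriptions were chosen with earlier results of these data known. TPM was used without rescaling. Clutches were compared with limma 3.58.1 in R 4.3.3 (lmFit, eBayes with trend and robust) on log2(TPM + 1) of all 15 embryos, over 12551 models with a mean of at least 1 TPM, which all 108 passed. P-values were adjusted by Benjamini-Hochberg over these models, and models were called at an adjusted p under 0.05. This scale understates the change of low models. The limma step was run on simulated data with normal noise and the same spread in each clutch. Changes were added only to models above a set level, so changes in models near 0 or with unequal spread were not covered. The models given by ID are the one with the highest clutch C mean and, among those called, the highest and the 2 lowest differences of clutch B minus A. Spread by level, ID numbers and identical models were examined after the values had been seen. Alternatives were other thresholds, scalings, pseudocounts (0.1 and 5), filters and moderation. Others were clutches A and B alone, a block for the sample number, and the omission of single embryos. The fit to clutches A and B alone kept the 12551 models chosen on all 15 embryos, so clutch C still bore on which models entered. Python 3.11.15, pandas 2.3.3 and matplotlib 3.10.9 were used.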

Additional observations from a re-analysis of the deposited data

Results flagged for a closer look

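The lowest clutch C embryo of Xetrov90015282m.g, at 17.8 TPM, lay far from its 4 siblings, which were at 28.6 to 32.5 TPM. Its gap exceeded Dixon's 95% critical value of 0.71 for 5 embryos, which chance passes in about 1 in 20 groups. Over the whole list, 9 of the 108 gene models had such an embryo in clutch C. No such count over all gene models is at hand, so nothing about the list is read from it. All 5 clutch C embryos of Xetrov90015282m.g were still above its highest embryo in the other clutches, at 10.1 TPM.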

How the results depend on the processing

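The number of gene models high in clutch C followed its thresholds. It was 334 with a clutch C mean of at least 1 TPM, 67 with 20 TPM, 248 with a ratio of 1.5 and 34 with a ratio of 4. It was 118 after median-ratio scaling, 120 after quantile normalization, 108 without a ceiling and 119 with overlap allowed, each including all 108, and 105 to 116 without single embryos. With models of a mean of at least 10 TPM alone, 18 were called higher and 5 lower in clutch B than in A; fewer models are tested there, 70 of the 108. In the other alternatives 24 to 29 were higher and 7 to 9 lower. No model given by ID lost its call or direction in the alternatives run for it. Those did not include the other filters, the other moderation or the fit to clutches A and B alone. Sample numbers were not shown to pair embryos. Of 15 same-numbered pairs, 2 had correlated deviations over 0.1, and of 60 pairs with unlike numbers 3 did. An embryo matched its own number best in 7 of 30 cases, with 5 embryos to choose from in each. With the replicate block, 29 were higher and 8 lower. The median spread among clutch C siblings was 12.1% to 13.3% with 1 embryo left out, in each case below the 14.3% with all siblings. In clutch A it was 14.5% to 18.0%, around 16.2%, and in clutch B 16.7% to 19.4%, around 17.4%. The fitted difference of Xetrov90026688m.g, listed at 0 in clutch B, ran from -6.34 to -1.39 with the pseudocount. Read depth is unknown, so counting error in low values cannot be given.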
